A study of Mus musculus with 35 samples.

Results

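The regions described here are stretches of accessible chromatin that lie wholly inside very long genes, meaning mouse protein-coding genes of at least 500 kb. They were found by ATAC-seq, in which Tn5 transposase cuts open DNA. Peaks that touched were joined within each of the 8 peak lists of the developmental series (set 1, chromosomes 1 to 19 and X of the mm10 build). The RefSeq annotation of GRCm38 held 227 such genes among 21631 protein-coding genes, with a median length of 734 kb. Edil3 (502 kb) and Dock1 (503 kb) lay just above the length limit, and Dnm3 (496 kb) and Lrrc7 (495 kb) just below it. The 8 lists held 30530 regions inside these genes, of 679062 regions in all. A region present in several lists is counted in each of them in these totals.

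The cells were hematopoietic stem cells (HSCs) and hematopoietic progenitor cells (HPCs) of mice on a B6 background. The HSC lists came from fetal mice at E16.5, an embryonic stage (3 libraries), from postnatal day 14 (P14, 3 libraries) and from adults of 8 weeks (5 libraries). The HPC lists came from E16.5 (3 libraries), P7 (3), P14 (2), P21 (2) and adults of 8 weeks (3). The adult groups are marked WT in their titles, and no genotype is given in the labels for the other groups of set 1. A second set held P7 HSCs and HPCs, labelled Wildtype (3 libraries each) or Infnar_KO (2 HSC and 3 HPC libraries), and the series design calls the knockout Ifnar-ko. The titles call the set 2 HPCs 48+LSK, the labels give cell types but no sort gates for set 1, and they do not say which animals were pooled.

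Each group had 1 list made from its pooled libraries, so no spread between replicates could be measured for any value that follows, and intervals cover counting error only. For 12 of the 24 set 1 libraries, the description points to the peak file of a different group. These included all 3 P14 HSC, both P14 HPC, both P21 HPC and 3 of the 5 adult HSC libraries. Lists were therefore assigned by the group named on the list itself. Absence of a call does not show that chromatin was closed.

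Long genes are typically genes of neurons: adhesion molecules, receptors and synaptic proteins whose introns hold most of their length. Several of them coincide with common fragile sites, where replication under stress finishes late. A smaller number act in blood cells, such as Mecom, a zinc finger transcription factor needed by HSCs, and Foxp1, a forkhead transcription factor of lymphoid cells. Accessible sites inside introns can be enhancers or internal start sites, and ATAC-seq alone does not separate these.

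The sequences shown are those of start sites of these genes that were called in some groups and not in others. RefSeq promoter windows of the same build (250 bases before to 50 after a start) were available for 179 of the 227 genes, as 290 windows. Among these 290 windows, 5 were overlapped by a region in both fetal lists and in no postnatal list, against 0.299% of 21045 windows of all protein-coding genes. Those 5 windows belonged to Celf2, Cntn4 and Dpp6. The Celf2 windows overlap each other and carry the same −log10 p, as do the Cntn4 windows, so the 5 are not separate calls. One window, an internal start of Marchf1, was called in all 5 HPC lists and in no HSC list, against 0.109% of all windows. No window of a long gene was called in all postnatal lists and no fetal list, or in all HSC lists and no HPC list, where the shares of all windows were 0.0570% and 0.0998%. The sequences below are 1 window for each of these 4 genes, followed by 2 windows with the highest mean −log10 p among those called in every list (Macrod2 and Cadm2), for contrast. Each is read 5′ to 3′ on the strand of its gene, and capitals mark matches, on either strand, to the 7 short motifs named after them.
Cntn4, chr6:106118692-106118991, plus strand: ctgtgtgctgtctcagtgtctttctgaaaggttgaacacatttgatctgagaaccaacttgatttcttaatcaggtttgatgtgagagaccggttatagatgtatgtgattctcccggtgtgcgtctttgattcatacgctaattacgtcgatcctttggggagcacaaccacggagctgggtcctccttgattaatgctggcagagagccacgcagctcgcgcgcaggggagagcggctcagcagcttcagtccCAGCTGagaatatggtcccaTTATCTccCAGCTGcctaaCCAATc
Marchf1, chr8:66386051-66386350, plus strand: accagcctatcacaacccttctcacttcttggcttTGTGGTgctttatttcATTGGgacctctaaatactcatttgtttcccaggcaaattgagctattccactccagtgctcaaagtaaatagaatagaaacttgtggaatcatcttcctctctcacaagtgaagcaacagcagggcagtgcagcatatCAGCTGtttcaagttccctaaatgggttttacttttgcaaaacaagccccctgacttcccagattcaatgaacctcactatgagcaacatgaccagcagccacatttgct
Celf2, chr2:7396149-7396448, minus strand: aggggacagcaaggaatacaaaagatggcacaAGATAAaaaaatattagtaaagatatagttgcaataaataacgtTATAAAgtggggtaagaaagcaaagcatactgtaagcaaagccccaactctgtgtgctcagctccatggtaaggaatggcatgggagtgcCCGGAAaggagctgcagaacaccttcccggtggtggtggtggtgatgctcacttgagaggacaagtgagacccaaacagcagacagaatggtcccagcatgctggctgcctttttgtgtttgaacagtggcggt
Dpp6, chr5:26817107-26817406, plus strand: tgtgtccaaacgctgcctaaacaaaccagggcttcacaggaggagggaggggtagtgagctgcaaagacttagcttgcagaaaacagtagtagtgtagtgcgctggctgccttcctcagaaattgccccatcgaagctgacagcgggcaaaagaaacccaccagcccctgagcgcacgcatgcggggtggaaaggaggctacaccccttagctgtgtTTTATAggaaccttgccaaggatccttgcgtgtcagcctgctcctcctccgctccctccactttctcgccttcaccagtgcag
Macrod2, chr2:140395180-140395479, plus strand: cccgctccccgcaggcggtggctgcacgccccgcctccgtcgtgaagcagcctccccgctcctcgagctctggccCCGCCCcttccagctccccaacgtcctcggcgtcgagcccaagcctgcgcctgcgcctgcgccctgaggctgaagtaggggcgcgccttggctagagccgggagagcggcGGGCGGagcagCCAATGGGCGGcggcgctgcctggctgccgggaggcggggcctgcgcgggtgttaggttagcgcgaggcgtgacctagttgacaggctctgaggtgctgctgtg
Cadm2, chr16:67620859-67621158, minus strand: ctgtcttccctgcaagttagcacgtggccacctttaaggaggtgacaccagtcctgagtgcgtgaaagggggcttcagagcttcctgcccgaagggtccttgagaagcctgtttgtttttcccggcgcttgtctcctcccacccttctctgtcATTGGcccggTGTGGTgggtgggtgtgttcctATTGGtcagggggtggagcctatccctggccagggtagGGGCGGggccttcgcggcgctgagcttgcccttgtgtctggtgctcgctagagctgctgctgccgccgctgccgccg

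The letters searched on both strands were GGGCGG for the GC box, CCAAT for the site of the factor NF-Y, and TATAAA for the usual TATA element. Further sets were AGATAA for GATA factors, CCGGAA for ETS factors, TGTGGT for RUNX factors and CAGCTG for an E-box, and matches to different motifs may overlap. Over all 21045 windows the shares with at least 1 match were 46.7% for the GC box, 38.5% for NF-Y, 12.7% for the TATA element, 9.68% for GATA, 18.9% for ETS, 14.7% for RUNX and 15.7% for the E-box. In the 290 windows of long genes these shares were 41.7%, 32.8%, 10%, 8.28%, 7.59%, 11.7% and 21.4% in the same order. The Cntn4 window held 12 CpG dinucleotides and matches to NF-Y (1), GATA (1) and the E-box (2). The Marchf1 window held no CpG and had 1 match each to NF-Y, RUNX and the E-box. The printed Celf2 window held 4 CpG and 1 match each to the TATA element, GATA and ETS, and the Dpp6 window held 10 CpG and 1 TATA match. By contrast, the Macrod2 window held 33 CpG and 3 GC box matches, and the Cadm2 window held 15 CpG. The median was 3.0 CpG in the 67 windows of long genes called in no list, 10 in the 98 called in 1 to 7 lists and 21 in the 125 called in all 8, beside 13 over all windows. These matches describe letters and were not tested as binding sites.

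The fetal starts were weak calls, while the Marchf1 start was weak in 4 HPC lists and above the list's median in adult HPC. In the authors' −log10 p, Dpp6 stood at 27.7 in fetal HSC and 26.8 in fetal HPC, Celf2 at 22.4 and 16.4, and Cntn4 at 15.5 and 18. The median region of the 2 fetal lists stood at 44.8 and 39.2. The Marchf1 start stood at 18.8 in fetal, 19.4 in P7, 37.5 in P14, 17.4 in P21 and 66.9 in adult HPC, where the median regions stood at 39.2, 29.2, 60.2, 48.9 and 57.3. None of the 4 lists of set 2 held it. The starts of Macrod2 and Cadm2 were instead among the strongest calls, at 1437 and 1545 in fetal HSC and at 4059 and 3672 in adult HSC. Contactin 4 (Cntn4) is a neuronal adhesion molecule, Dpp6 an auxiliary subunit of potassium channels, Celf2 an RNA-binding splicing regulator and Marchf1 a ubiquitin ligase that lowers MHC class II on immune cells. The Cntn4 and Marchf1 windows are internal starts whose regions lie wholly inside the gene. The regions over the Celf2 and Dpp6 windows cross the end of the gene and so are not counted inside it.

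Of the 179 genes with a promoter window, 160 had at least 1 window called in fetal HSC (89.4%, exact 95% interval 83.9 to 93.5), 122 in P14 HSC and 155 in adult HSC. In HPC the numbers were 154 in fetal, 147 at P7, 150 at P14, 131 at P21 and 146 in adult. The lowest of these 8 shares, 68.2% in P14 HSC, stood beside 62.6% of all 17274 genes, and the highest beside 64.5%. Start sites were thus called in a larger share of long genes than of all genes in each of the 8 lists. Counted by window, 23.1% of the windows of long genes and 33.7% of all windows were called in no list, whereas 43.1% and 54.0% were called in all 8. Long genes had 1.62 windows a gene and all genes 1.22, and the part of this in the share of genes with at least 1 called window was not tested. Fetal HSC held a called start in 7 long genes where adult HSC held none (3.91%, all genes 1.83%), and the reverse held for 2 long genes (1.12%, all genes 1.35%). The fetal and adult HPC lists gave 9 long genes (5.03%, all genes 3.20%) and 1 in reverse (all genes 1.40%). At P14, 30 long genes had a called start in HPC and none in HSC (16.8%, all genes 2.96%), and 2 had one in HSC alone (all genes 1.19%).

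Regions inside long genes made up a share of each list that was highest in the fetal lists and lowest in P14 HSC and P21 HPC. Fetal HSC held 4681 such regions of 90968 (5.15%, exact 95% interval 5.0 to 5.29), P14 HSC 2279 of 73287 (3.11%, 2.99 to 3.24) and adult HSC 4337 of 89431 (4.85%, 4.71 to 4.99). Fetal HPC held 4747 of 90464 (5.25%, 5.10 to 5.39), P7 HPC 3610 of 78874 (4.58%), P14 HPC 3856 of 91043 (4.24%), P21 HPC 2659 of 74297 (3.58%) and adult HPC 4361 of 90698 (4.81%). In HPC the share was lower at each successive age to P21, and the adult value stood above the values of P7, P14 and P21. The mean share was 5.20% ± 0.0719 (SD, n = 2 lists) in fetal and 4.19% ± 0.708 (SD, n = 6 lists) in postnatal lists. This difference of 1.0 percentage point was not past the threshold of an exact two-sided permutation test over lists (p = 0.107, 28 arrangements, smallest possible p 0.0357). HSC and HPC lists averaged 4.37% ± 1.10 (SD, n = 3) and 4.49% ± 0.628 (SD, n = 5), where the SD spans lists of different ages. An exact two-sided permutation test over lists, which did not match them by age, gave p = 0.875 (smallest possible 0.0179). At matched ages HSC and HPC held 5.15% and 5.25% in fetal, 3.11% and 4.24% in P14, and 4.85% and 4.81% in adult lists. The share of all regions that lay in any protein-coding gene ranged only from 45.5% in fetal HSC to 48% in P14 HSC.

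**Figure D1:**
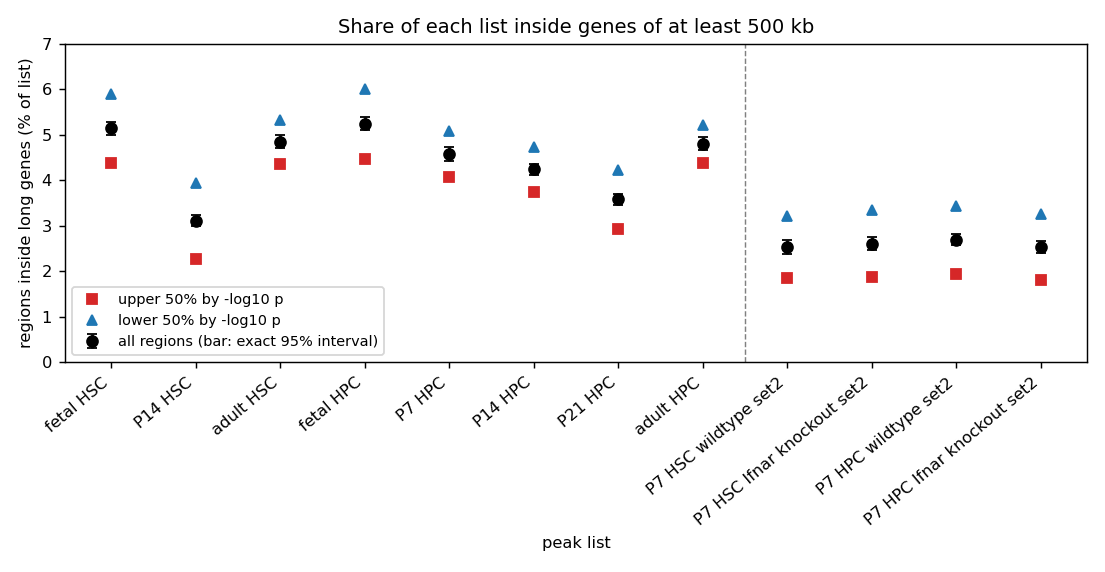
Share of each peak list (y axis, percent of its regions) that lies inside genes of at least 500 kb, for the 8 lists of set 1 and, right of the dashed line, the 4 of set 2. Black points are all regions with exact 95% intervals, red squares the upper 50% and blue triangles the lower 50% of the list by −log10 p. Fetal HSC (5.15%) and fetal HPC (5.25%) are highest, P14 HSC is lowest in set 1 (3.11%), and red lies below blue in every list.

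Regions inside long genes were weaker than the rest of their list. Their median −log10 p was 35.6 in fetal HSC, where regions elsewhere had 44.9, and 54.5 against 80.5 in P14 HSC. The shares of them in the upper 50% of their own list, called strong regions here, ran from 36.5% in P14 HSC to 45.7% in adult HPC. They were also narrower, with medians of 525 and 554 bases in fetal HSC. The share inside long genes also moved with list properties: the 2 lists of fewest regions (P14 HSC and P21 HPC) had the lowest shares and the highest median fold enrichment of these regions (12.2 and 9.72, against 7.51 in fetal HPC). When each list was cut to its strongest 73287 regions, the shares were 4.88%, 3.11% and 4.60% in fetal, P14 and adult HSC, and 4.94%, 4.45%, 4.09%, 3.56% and 4.64% in fetal, P7, P14, P21 and adult HPC, so the order of the ages within HSC and within HPC was kept. The part of library quality in these shares was not tested.

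Between 1.13% (fetal HSC) and 1.96% (P21 HPC) of these regions lay within 1 kb of a gene end, and the median distance ran from 158 to 182 kb. Regions that cross a gene end, as at many start sites, are left out by the rule, which lowers these shares. They were not compared with the share of gene length near the ends. The 11 long genes on X held 8.69 regions per Mb in fetal HSC and 8.88 in adult HSC, where long genes on autosomes held 25.5 and 23.6. Of the whole lists, only 2.67% of fetal HSC and 2.81% of adult HSC regions lay on X. Whether the low density on X is particular to long genes was not tested. The sexes of the mice are not given in the labels used here.

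With all regions counted, more long genes were called higher in fetal lists than were called higher in adult lists of the same cell type. Counts per gene were scaled to 10000 regions of the list, and a gene was called when the scaled counts of 2 lists differed at least 1.5-fold and the lists together held at least 10 regions in it. These calls rest on 1 list a group and are descriptions of size. In HSC, 217 of the 227 genes passed the filter, and 52 were called higher in fetal HSC, where 6.82% of all 2433 genes so tested were. Only 5 were called higher in adult HSC, where 10.6% of all genes were. In HPC, 210 passed, 51 were called higher in fetal HPC and 8 higher in adult HPC, where the share of all 2439 genes was 9.80% in each direction. Over all 227 genes with no filter, 126 had the higher scaled count in fetal HSC and 100 in adult HSC, and 141 and 85 in fetal and adult HPC. The median log2 ratio of fetal to adult was 0.10 for long genes and -0.02 for all genes in HSC, and 0.09 and 0.00 in HPC, with counts of 0 set to a floor of 3 regions.

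Calls toward fetal lists were fewer among strong regions. Those toward adult lists were not, at 13 in place of 5 in HSC and 9 in place of 8 in HPC. With only strong regions counted, 150 long genes passed the filter in HSC, of which 10 (6.67%) were higher in fetal and 13 (8.67%) in adult HSC. The corresponding shares of all 875 genes were 3.66% and 13.9%, so the share of long genes still lay above that of all genes toward fetal HSC and below it toward adult HSC. In HPC, 157 passed, with 16 (10.2%) higher in fetal and 9 (5.73%) in adult HPC, where the shares of all genes were 8.28% and 9.59%. Of those 10 and 16 fetal calls, 7 and 13 were also called with all regions. Of the 13 and 9 adult calls, only 1 and 2 were. With lists cut to equal length instead, the fetal calls numbered 50 in HSC and 47 in HPC. These were 23.0% and 22.4% of the long genes tested, where 8.14% and 8.98% of all genes were so called.

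The HSC and HPC comparisons share no list. Of the 52 and 51 genes higher in the fetal list, 34 were the same genes, which is 65.4% of the HSC calls and 66.7% of the HPC calls. Of all long genes tested, 24.0% were so called in HSC and 24.3% in HPC. The same overlap over all protein-coding genes was not counted, so it is not known whether it is particular to long genes. No gene was called in opposite directions in the 2 cell types, where only 5 and 8 genes were called higher in adult HSC and adult HPC. The 34 genes included a cadherin (Cdh13), contactins (Cntn4, Cntn5), contactin-associated proteins (Cntnap5a, Cntnap5c), the ErbB4 receptor and its ligand Nrg3, and the calcium channel Ryr3. Only Hpse2 and Sugct were called higher in adult lists in both cell types.

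The 34 genes span 34.6 Mb. The fetal and adult values chose them, so those are given as a description: 604 regions in fetal and 256 in adult HSC, and 549 in fetal and 244 in adult HPC. The lists between these ages took no part in the choice. They held 254 regions at P7, 221 at P14 and 111 at P21 in HPC, and 81 in P14 HSC. Per 10000 regions this was 32.2, 24.3 and 14.9 in HPC and 11.1 in P14 HSC, beside 60.7 in fetal HPC and 66.4 in fetal HSC. The adult HPC value was 26.9. Since the choice set both the fetal and the adult values, the place of the P7 value between them cannot be read as a time of change. In the 4 lists of set 2, all from P7, the same genes held between 8.02 and 13.2 regions per 10000. All long genes together held 515, 311 and 485 per 10000 in fetal, P14 and adult HSC. They held 525, 458, 424, 358 and 481 in the HPC lists from fetal to adult, and between 253 and 269 in set 2.

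**Figure D2:**
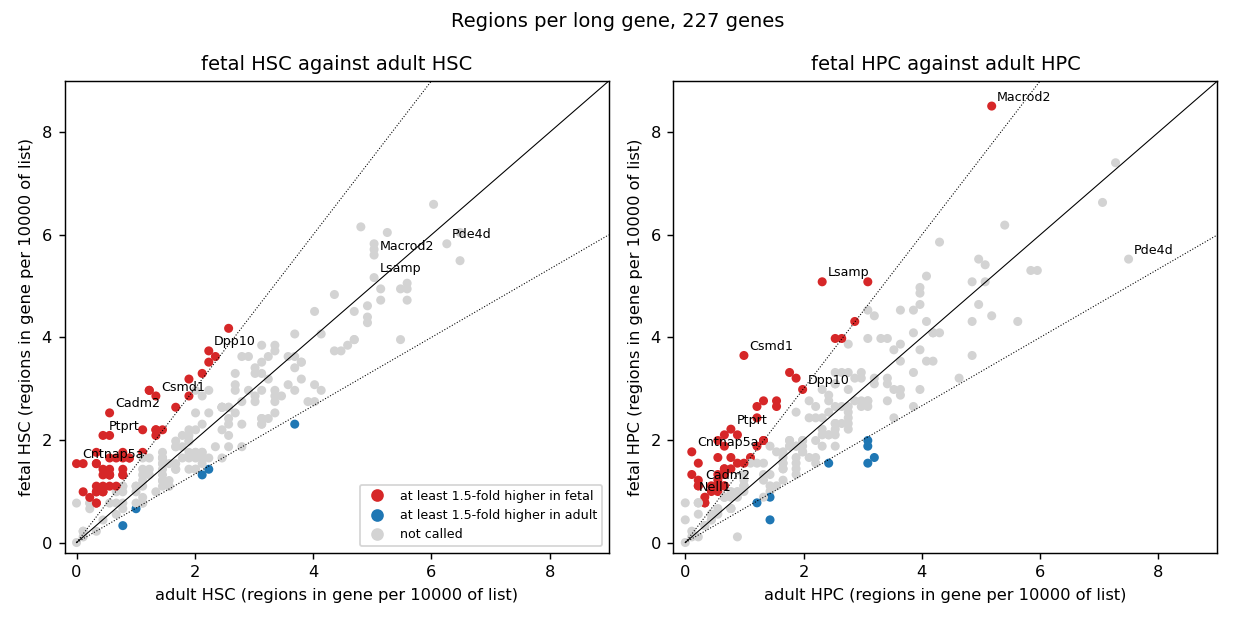
Scaled counts of regions (per 10000 regions of the list) for each of the 227 long genes, adult on the x axis and fetal on the y axis, for HSC (left) and HPC (right). Red points were called higher in fetal (52 and 51 genes), blue points higher in adult (5 and 8), the solid line marks equal counts and dotted lines 1.5-fold. Cntnap5a, Ptprt, Cadm2 and Csmd1 lie far above the line in both panels, while Pde4d lies below it.

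Cntnap5a, a contactin-associated adhesion protein of neurons (chr1:115684737-116587323), showed one of the widest gaps. It held 14 regions in fetal HSC and 0 in both P14 and adult HSC, and 16 in fetal, 3 in P7, 2 in P14, 1 in P21 and 1 in adult HPC. The fetal lists thus stood apart from the other 6. The scaled count was at least 4.59-fold higher in fetal than adult HSC, with the floor of 3 regions set for adult, and 16-fold higher in HPC (95% interval 2.49 to 673). Its relative Cntnap5c held 9, 0 and 1 regions in fetal, P14 and adult HSC and 10, 3, 3, 0 and 2 in the HPC lists from fetal to adult. Nell1, a secreted protein that promotes bone formation (chr7:49975350-50863289), held 14, 0 and 1 in HSC and 12, 1, 1, 0 and 1 in HPC. Its scaled fold was 13.8 in HSC (2.09 to 582) and 12.0 in HPC (1.78 to 514). These intervals are wide because the adult lists held a single region each.

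Csmd1, a membrane protein of the complement-regulating CUB and sushi family (chr8:15892538-17535385), held 26, 4 and 12 regions in fetal, P14 and adult HSC. Its HPC counts were 33 in fetal, 14 at P7, 12 at P14, 5 at P21 and 9 in adult. The fold of fetal over adult was 2.13 in HSC (1.04 to 4.63) and 3.68 in HPC (1.72 to 8.74). Ptprt, a receptor protein tyrosine phosphatase (chr2:161521988-162661147), held 19, 2 and 4 regions in HSC and 20, 10, 4, 2 and 7 in HPC. Its fold was 4.67 in HSC (1.55 to 18.9) and 2.86 in HPC (1.16 to 8.02). For Dpp10, an auxiliary subunit of A-type potassium channels (chr1:123332138-124845815), the counts were 34, 5 and 20 in HSC and 27, 17, 15, 5 and 18 in HPC. Its folds of 1.67 (0.935 to 3.06) and 1.5 (0.798 to 2.90) had intervals that reach below 1.

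Other genes behaved like Ptprt. Cadm2, an adhesion molecule of the immunoglobulin superfamily, held 23, 2 and 5 regions in HSC and 14, 6, 4, 2 and 2 in HPC, although its start site was among the strongest calls of every list. Lrrc4c, a netrin-G ligand at synapses, held 16, 1 and 3 in HSC and 10, 2, 2, 2 and 2 in HPC. Macrod2, which removes ADP-ribose from proteins, was called in HPC and not in HSC: it held 77 regions in fetal and 47 in adult HPC (1.64-fold, 1.13 to 2.41), and 51 and 45 in fetal and adult HSC. That difference between the cell types was not tested.

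Calls toward adult lists were few and small. Cpq, a carboxypeptidase, held 3 regions in fetal and 7 in adult HSC, Fgf12 12 and 19, and Sugct, a mitochondrial CoA transferase, 21 and 33. In HPC, Vps13b, a lipid transfer protein of the Golgi, held 4 in fetal and 13 in adult (3.24-fold, 1.0 to 13.6), Pard3b, a cell polarity protein, 14 and 28, and Ctnnd2, a delta catenin, 15 and 29. The intervals of the 5 genes called in adult HSC all include 1, and so do those of 39 of the 52 genes called in fetal HSC and 34 of the 51 called in fetal HPC.

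**Figure D3:**
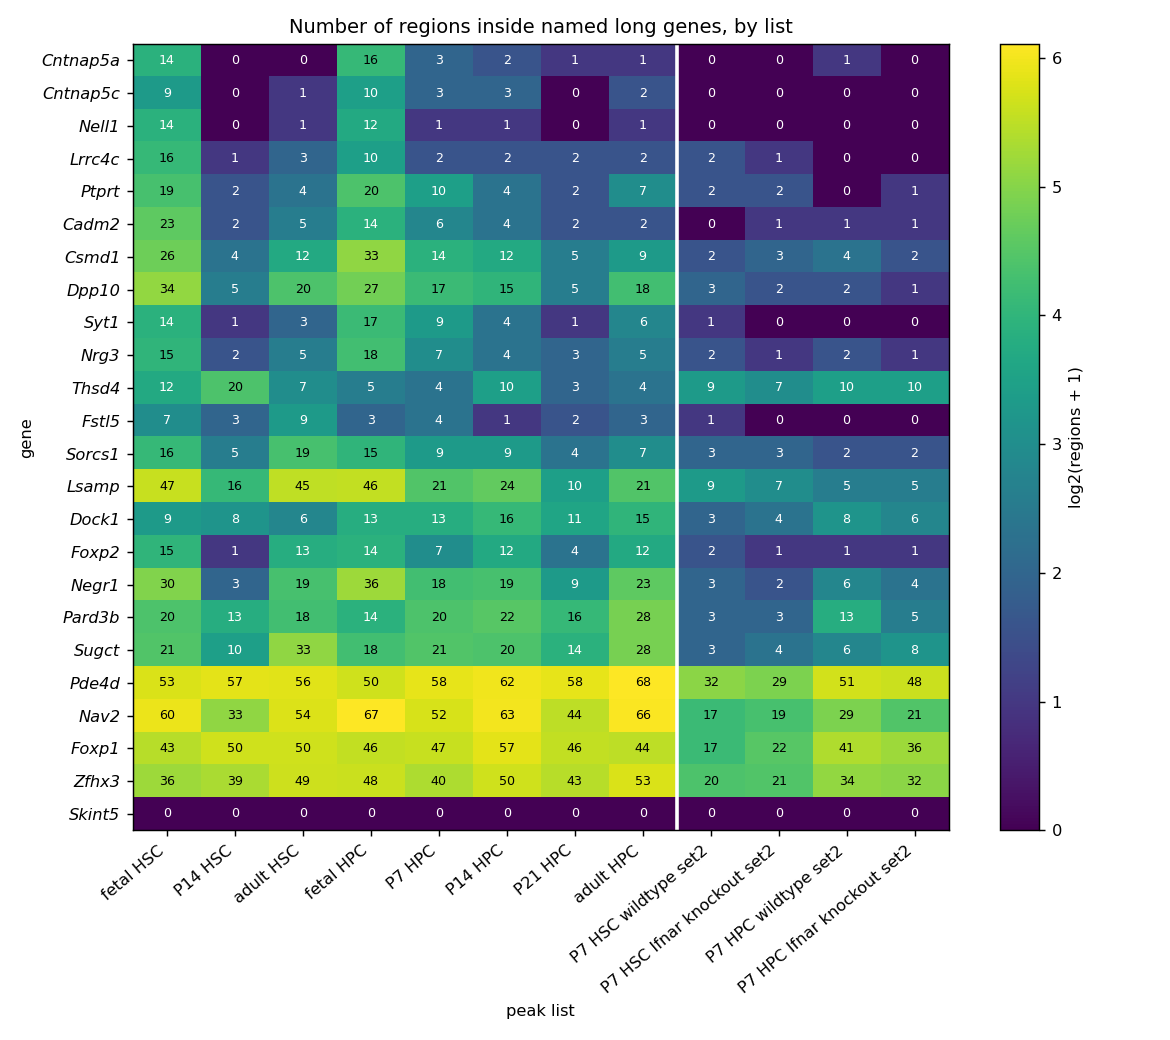
Number of regions inside 24 named long genes (rows) in the 8 lists of set 1 and, right of the white line, the 4 of set 2 (columns); each cell prints the count and its colour is log2(count + 1). The upper rows, such as Cntnap5a (14 in fetal HSC, 0 in adult HSC), are high in the 2 fetal lists, while Pde4d stays between 50 and 68 across set 1.

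The number of regions per gene spanned a wide range. Over the 8 lists together, a gene held between 0 and 462 regions, with a median of 124, and 209 of the 227 genes held at least 1 region in every list. Pde4d, a cyclic AMP phosphodiesterase, held the most: 53, 57 and 56 in fetal, P14 and adult HSC, and 50, 58, 62, 58 and 68 in the HPC lists by age. Nav2, Arhgap26, Dlg2, Foxp1, Tenm4, Wwox and Zfhx3 followed, with 439, 420, 397, 383, 367, 361 and 358 over the 8 lists. Per length, Nav2, a helicase-like neuron navigator protein, was the densest gene with a mean of 84.3 regions per Mb, and Foxp1 had 80.1. At the other end, Skint5, an immunoglobulin-like gene of skin and thymus, held 0 in all 12 lists. Pcdh11x and Galnt13 held 7 and 9 over the 8 lists (1.41 and 1.65 per Mb), and Naaladl2 and Il1rapl1 held 2.69 and 2.82 per Mb. The genes with no region at all numbered 1 in each fetal list, 13 in P14 HSC and 12 in P21 HPC.

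Gene groups differed in density and in how it moved with age. The 46 long genes of neuronal cell adhesion and guidance held 975, 297 and 753 regions in fetal, P14 and adult HSC (19.9, 6.07 and 15.4 per Mb). Their HPC counts were 959, 581, 621, 383 and 678 from fetal to adult. Of these 46 genes, 44 passed the filter in HSC, and 20 were called higher in fetal and 0 in adult HSC, with a median log2 ratio of 0.28. The shares so called were 24.0% and 2.30% of all long genes tested and 6.82% and 10.6% of all genes. In HPC 42 passed, and 18 were higher in fetal and 0 in adult, with a median of 0.43, where the shares were 24.3% and 3.81% of long genes and 9.80% of all genes in each direction. These shares are the background for the counts of the groups that follow. Tenm4, Nrxn3 and Robo2 held the most regions among them, at 367, 318 and 256 over the 8 lists, and Robo2, an axon guidance receptor, held 46 in fetal and 28 in adult HPC.

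The 24 long genes of neurotransmitter receptors and ion channels followed the same course, with 384, 124 and 303 regions in HSC. Of the 22 that passed in each cell type, 9 were higher in fetal HSC and 1 in adult HSC (all genes 6.82% and 10.6%), and 9 and 0 in HPC (all genes 9.80% each). Dpp6 held 33, 8 and 29 in HSC, and Kcnip4, another potassium channel subunit, 24, 4 and 22. The 6 receptor tyrosine phosphatases, led by Ptprm, Ptprn2 and Ptprg, gave 1 gene higher in fetal HSC and 2 in fetal HPC, and 0 in the adult lists. Of the 19 long genes of synaptic scaffolds and release, 4 were higher in fetal HSC and 5 in fetal HPC (18 tested), and 0 in adult lists. Dlg2, the scaffold PSD-93, was not among them, with 55, 24 and 58 regions in HSC.

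The 20 long genes of blood and immune cell function had the highest density of these groups. They held 497, 438 and 566 regions in fetal, P14 and adult HSC, which is 38.3, 33.8 and 43.7 per Mb, and 524, 496, 554, 453 and 584 in HPC. None of the 20 was called in either direction in HSC (all genes 6.82% and 10.6%), and 1 was called in each direction in HPC (all genes 9.80% each), and on 20 genes such shares give few calls. Their median log2 ratio of fetal to adult was -0.23 in HSC and -0.14 in HPC. Foxp1 held 43, 50 and 50 regions in HSC, and Nfia, a nuclear factor of myeloid and erythroid differentiation, 41, 27 and 42. P14 HSC, which held 2279 regions in all long genes where fetal HSC held 4681, thus held 438 in this group where fetal HSC held 497. The 13 long housekeeping genes, among them Wwox, Immp2l and Fhit, gave 2 calls toward fetal and 0 toward adult HSC, and 1 and 2 in HPC. The 20 long genes at common fragile sites gave 7 and 0 in HSC (all genes 6.82% and 10.6%, all long genes 24.0% and 2.30%) and 9 and 0 in HPC (all genes 9.80% each, all long genes 24.3% and 3.81%). Some of these belong to several groups, such as Pde4d (fragile sites and blood) and Wwox.

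Among strong regions the adhesion group held 435 in fetal and 371 in adult HSC, and 430 and 347 in HPC, and the receptors and channels 170 and 142, and 154 and 140. The synaptic group held 225 strong regions in both fetal and adult HSC, and 231 and 219 in HPC. The receptor phosphatases held 77 and 69 in HSC, but 68 in fetal and 71 in adult HPC. The blood group held 207 and 228 strong regions in HSC and 208 and 254 in HPC.

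**Figure D4:**
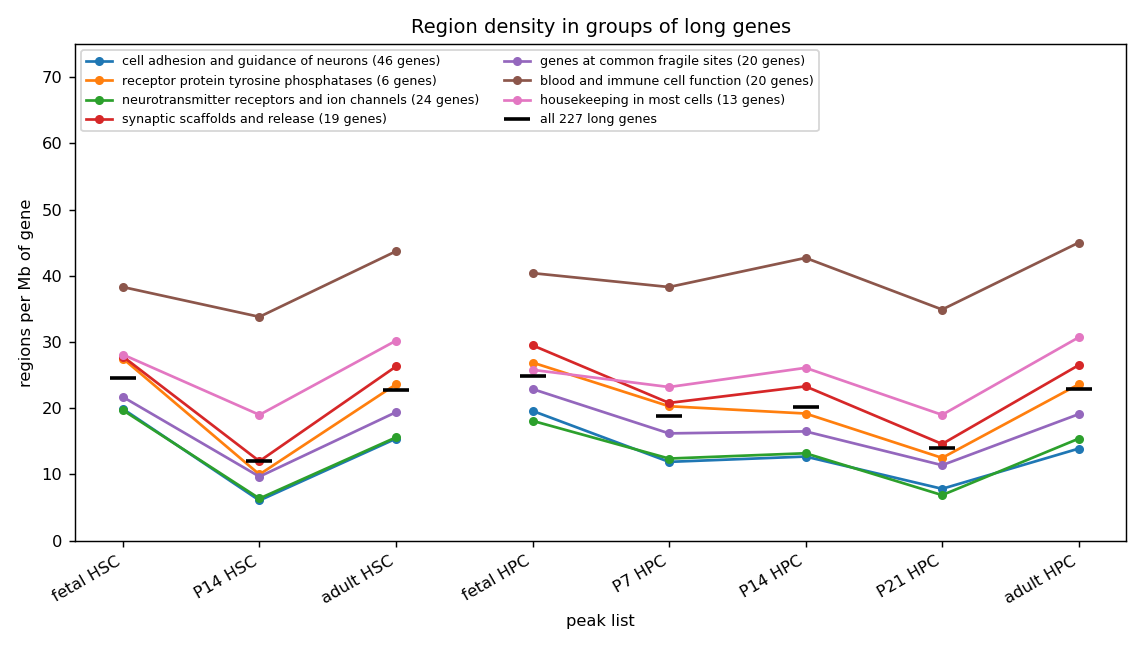
Regions per Mb of gene (y axis) in 7 groups of long genes across the 8 lists of set 1, with lines joining the HSC lists and the HPC lists in order of age and black dashes for all 227 long genes. Genes of neuronal adhesion and of receptors and channels run lowest (6.07 and 6.37 per Mb in P14 HSC), while genes of blood and immune function stay between 33.8 and 45.0 per Mb.

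Markers of other cell types were read in the same lists, within 1 kb of each gene. For Mecom and Syt1 these counts equalled those of regions wholly inside the gene in all 8 lists. Of the 4 hepatocyte genes, Ttr and Alb had no region in any of the 8 lists, Afp had 3 in each, and Apoa2 had 2 in both fetal lists and 1 in both adult lists. The 4 neuron markers held 35, 23 and 13 regions in fetal, P14 and adult HSC and 26, 18, 20, 12 and 18 in the HPC lists by age. Syt1, the calcium sensor of synaptic vesicle release, is itself one of the 227 genes and held 14 and 3 of those in fetal and adult HSC, and 17 and 6 in fetal and adult HPC. Without it the other neuron markers (Rbfox3, Snap25 and Tubb3) held 21 in fetal and 10 in adult HSC, but 9 in fetal and 12 in adult HPC. Rbfox3, a splicing factor of neurons, held 14 and 7 in fetal and adult HSC, and 4 and 7 in HPC. The 3 macrophage markers held 4, 2 and 1 in HSC and 5, 3, 3, 2 and 3 in HPC, with the highest counts in the fetal list of each cell type. C1qa was at 0 in all 8 lists, and Adgre1 held 3 in fetal and 1 in adult HSC, and 4 and 2 in HPC. The 3 erythroid markers held 2 in each HSC list, 4 in fetal HPC and 2 in adult HPC. The T cell markers held 1 or 2 regions a list, with Cd8a at 0 in all 8, the B cell markers 3 to 7, and the endothelial markers 3 in each HSC list and 5 to 8 in the HPC lists. The 5 HSC markers held 58, 53 and 67 regions in the HSC lists and 54, 52, 57, 53 and 63 in the HPC lists, of which Mecom gave between 29 and 40. Among them Slamf1 held 4 in fetal and adult HSC and 1 in fetal and adult HPC, while at P14 it held 5 and 4. The 4 HPC markers held 14, 15 and 12 in HSC and 17, 14, 18, 15 and 19 in HPC, with Mpo at 0 in adult HSC and in P7 HPC. The part of other cells in these counts was not tested.

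Sharing between lists was lower inside long genes than across whole lists in 9 of the 10 directions compared. A region counted as shared when any base overlapped a region of the other list. Whole lists also hold regions across gene ends, as at start sites, which the rule leaves out of the long-gene regions. The part of this in the gaps was not tested. Of the fetal HSC regions inside long genes, 1436 of 4681 (30.7%, exact 95% interval 29.4 to 32.0) were missing from adult HSC, where 22.4% of the whole list were. In the reverse direction 24.7% (23.4 to 26.0) were missing, against 21%. For HPC the shares were 34.3% (33.0 to 35.7) of fetal regions missing in adult, against 25.2%, and 28.1% (26.8 to 29.4) of adult regions missing in fetal, against 24.8%. The gap to the whole list was wider in the fetal direction in both cell types. Among strong regions it was 7.52% (6.40 to 8.76) against 3.42% for fetal HSC missing in adult, and 6.20% (5.17 to 7.36) against 4.53% in reverse. In HPC it was 10.1% (8.8 to 11.5) against 5.44%, and 7.52% (6.40 to 8.76) against 6.39% in reverse.

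Between cell types of one age, the gaps were of similar size in fetal and adult lists. Of fetal HSC regions in long genes, 28.9% (27.6 to 30.2) were missing from fetal HPC, against 24.0% of the list, and 28.6% (27.4 to 30) against 22.6% in reverse. Of adult HSC regions 28.7% (27.4 to 30.1) were missing from adult HPC, against 23.5%, and 27.7% (26.4 to 29.0) against 23.0% in reverse. Strong regions gave 4.21% against 3.26% and 6.57% against 4.72% in the fetal lists, and 7.78% against 4.90% and 8.97% against 6.57% in the adult lists. At P14 the 2 directions parted: 14.3% (12.8 to 15.8) of HSC regions in long genes were missing from HPC, against 15.9% of the list, whereas 48.7% (47.1 to 50.3) of HPC regions were missing from HSC, against 31.2%. Among strong regions these were 2.16% against 2.62%, and 24.0% (22.0 to 26.1) against 10.5%. The P14 HSC list was also the shorter one, and with lists of equal length the share was 39.6%, against 22.2%.

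A pair of lists of the same labelled kind gives a scale for these shares. P7 HPC of set 1 and wild-type P7 HPC of set 2 differ in set and in how the lists were made, since the lowest −log10 p was 1.02 in the first and 2.12 in the second. Of the P7 HPC regions of set 1 inside long genes, 55.4% (53.8 to 57.0) were missing from set 2, against 30.6% of the whole list. Among strong regions it was 27.6% (25.4 to 29.8), against 10.1%. In the other direction 9.35% (8.04 to 10.8) were missing, against 18.4%, and among strong regions 0.467% against 4.32%. The 55.4% of set 1 regions missing from set 2 stood above each of the 10 shares of long-gene regions measured between ages or cell types in set 1, and the 9.35% of the other direction stood below each of them. How far the differences between ages would repeat in separate libraries could not be measured.

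**Figure D5:**
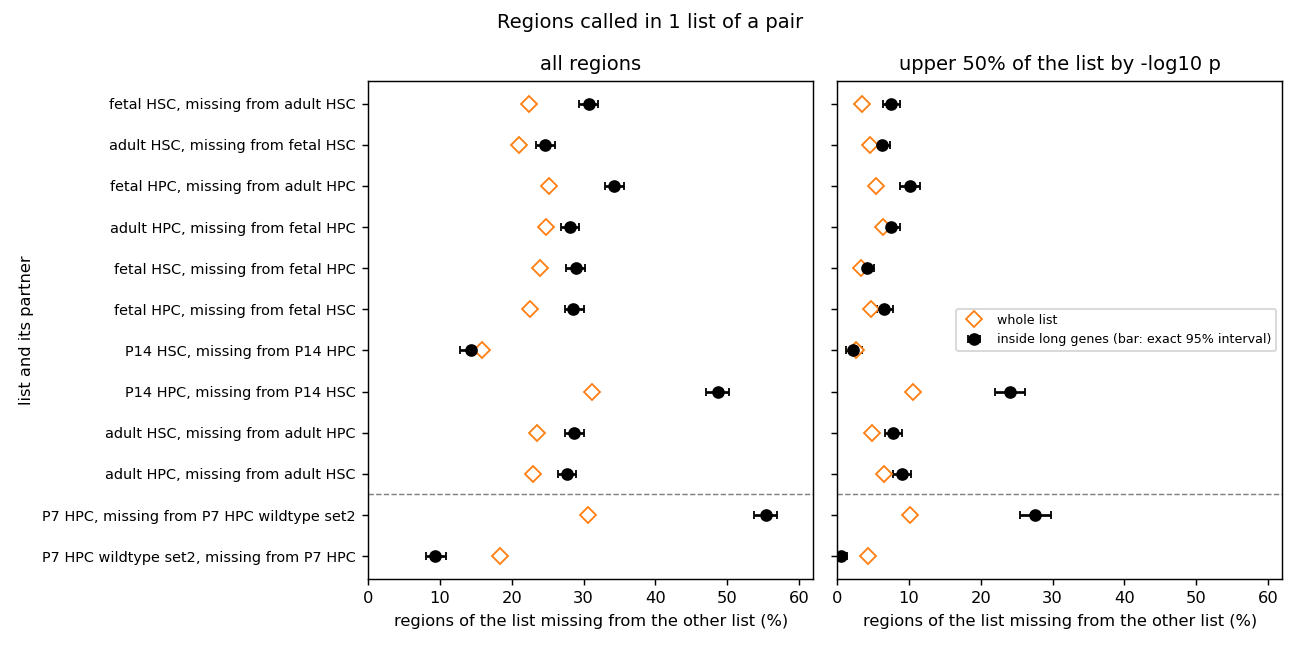
Regions of 1 list missing from its partner (x axis, percent) for the 10 directions of set 1 and, under the dashed line, for P7 HPC of set 1 against wild-type P7 HPC of set 2. Black points are regions inside long genes with exact 95% intervals, orange diamonds the whole list, with all regions on the left and strong regions on the right. P14 HPC against P14 HSC (48.7% and 31.2%) and P7 HPC against set 2 (55.4% and 30.6%) show the widest gaps.

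With all regions counted, counts per gene between cell types showed fewer calls than between ages, except at P14. This did not hold among strong regions in the fetal lists. There 10 of 159 long genes were higher in HSC and 13 in HPC (all genes 3.66% and 11.6%). Between fetal and adult HSC the strong calls were 10 and 13 of 150 (all genes 3.66% and 13.9%). In the fetal lists, 221 long genes passed the filter, with 13 higher in HSC (all genes 6.01%) and 8 higher in HPC (all genes 9.43%). In the adult lists 198 passed, with 19 higher in HSC (all genes 8.25%) and 11 in HPC (all genes 7.15%). At P14, 171 passed, and 3 were higher in HSC (all genes 10.5%) and 82 in HPC (all genes 14.6%). Among the latter were Foxp2, a forkhead transcription factor, with 1 region in HSC and 12 in HPC, Pcdh15 with 2 and 13, and Stpg2 with 1 and 9. Foxp2 held 15 regions in fetal and 13 in adult HSC. In the P7 lists of set 2 it held 2 and 1 in wild-type and knockout HSC, and likewise only 1 and 1 in HPC.

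Thsd4, a matrix protein of the ADAMTS-like family, was called higher in HSC than HPC in the fetal, P14 and adult lists. In set 2 at P7, where no calls were made, it held 9 and 7 regions in wild-type and knockout HSC and 10 and 10 in HPC. In set 1 Thsd4 held 12, 20 and 7 regions in fetal, P14 and adult HSC, and 5, 4, 10, 3 and 4 in fetal, P7, P14, P21 and adult HPC. Its folds of HSC over HPC were 2.39 (0.783 to 8.65) in fetal, 2.48 (1.11 to 5.94) in P14 and 1.77 (0.451 to 8.27) in adult lists. Fstl5, a follistatin-like protein, held 7 and 3 regions in fetal HSC and HPC and 9 and 3 in the adult lists. Among adult lists, Lsamp, a limbic adhesion protein, held 45 in HSC and 21 in HPC (2.17-fold, 1.27 to 3.84), but 47 and 46 in the fetal lists. Sorcs1, a sorting receptor, held 19 in adult HSC and 7 in adult HPC. Dock1, an activator of the GTPase Rac, held 6 in adult HSC and 15 in adult HPC (2.47-fold, 0.904 to 7.75). Egfem1 held 4 in fetal HSC and 8 in fetal HPC.

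All 8 lists were then joined into 142992 regions, of which 7649 lay inside long genes. Of these, 30% occurred in 1 list only, against 22.8% of all joined regions, and 16.7% in all 8 lists, against 28.9%. Regions called in both fetal lists and in no postnatal list numbered 295, or 3.86% (exact 95% interval 3.44 to 4.31), against 1.64% of all joined regions. Long genes held 12.6% of the 2344 regions of this kind in the genome. Regions in all 6 postnatal lists and no fetal list numbered 8 (0.105%, against 0.310%). Those in all 3 HSC lists and no HPC list numbered 26 (0.340%, against 0.629%), and those in all 5 HPC lists and no HSC list 90 (1.18%, against 1.09%). Leaving out the P14 and P21 lists, whose libraries' descriptions name other lists, gave 336, 73, 238 and 168. The HSC share then turned from below to above that of all joined regions (3.20% against 2.82%). The other shares were 4.52% against 2.65% for fetal, 0.982% against 1.17% for postnatal and 2.26% against 2.02% for HPC regions.

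The 295 fetal regions spread over 120 genes. Csmd1 held 9, Cntnap5a 8, and Cadm2, Lrrc4c and Macrod2 7 each. The strongest by mean −log10 p was in Nrg1, a growth factor for ErbB receptors, at chr8:32805749-32806741, with 155 in fetal HSC and 128 in fetal HPC. Those in Nell1 (chr7:50485194-50485812) stood at 196 and 57.3, in Cntnap5a (chr1:116477431-116478246) at 168 and 73.8, in Csmd1 (chr8:15980463-15981360) at 129 and 101, and in Cacna2d3, a calcium channel subunit (chr14:29267189-29267968), at 139 and 68.9. None of these 5 was called in set 2. Of all 295, set 2, which the choice did not use, held 0 in wild-type HSC (95% interval up to 1.24%), 1 in knockout HSC, 0 in wild-type HPC and 0 in knockout HPC. Across the genome 0.299% to 1.62% of such regions were present in these lists. Since the lists of set 2 held 42459 to 66044 regions and only 2.53% to 2.69% of them in long genes, their low overall number there bears on this absence.

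The 8 regions of all postnatal lists lay in 8 different genes, among them Auts2, Gpc6, Mecom, Smyd3, Arhgap26, Zfhx3 and Npas3. The one in Auts2, a regulator of Polycomb complexes (chr5:131600030-131601117), stood at 86.6 in P14 and 539 in adult HSC, and at 18.1, 97.3, 23.0 and 309 in P7, P14, P21 and adult HPC. It was also called in both HSC lists of set 2. The one in Mecom (chr3:30233933-30234438) stood at 57.5 and 111 in P14 and adult HSC and 15.1 to 187 in HPC, and set 2 held it in 3 of 4 lists.

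The 26 HSC regions were led by those in Cadm2 (chr16:66717044-66717484, 150, 14.9 and 211 in fetal, P14 and adult HSC), Foxp1 (chr6:98975789-98976405, 50.3, 81.5 and 199), Enox1, Thsd4 (chr9:60367730-60368951, 28.7, 153 and 130) and Lpp. Of the 26, wild-type P7 HSC of set 2 held 7 (26.9%, 11.6 to 47.8), knockout HSC 5, and neither HPC list any. The 90 HPC regions were led by Fhit, a tumour suppressor at a fragile site (chr14:10593181-10594372), at 175, 104, 323, 206 and 531 in the HPC lists from fetal to adult. Next came Nfia (chr4:98020596-98021490, from 60.7 to 222), Ctnna3 (chr10:63633949-63634453, from 52.0 to 246), Fam155a (67.7 to 190) and Frmd4a (25.0 to 218). Wild-type P7 HPC of set 2 held 56 of the 90 (62.2%, 51.4 to 72.2) and knockout HPC 36 (40%, 29.8 to 50.9), whereas the HSC lists held 1 and 0. Over all joined regions of these kinds, 26.0% of the HSC regions were held by wild-type and 21.5% by knockout P7 HSC, and 12.8% and 10.2% by the HPC lists. Of the HPC regions, 77.7% and 54.7% were held by the HPC lists and 0.449% and 0.256% by the HSC lists. Most of the 26 HSC regions in long genes thus did not recur in set 2, at about the share of all such regions. For the 90 HPC regions, both shares in the HPC lists were lower than the shares of all such regions. The set 2 lists held fewer long-gene regions in general. Of the P7 HPC regions of set 1, wild-type HPC of set 2 held 44.6% inside long genes and 69.4% of the whole list. Knockout HPC held 37.7% and 63.7%. The 90 regions are held by all 5 HPC lists, unlike these P7 HPC regions. Whether their shortfall is particular to them was not tested.

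The strongest single regions missing from a partner list were far above their list's median. Macrod2 held one at chr2:140497382-140498483 in adult HSC with −log10 p of 1005, above 97.2% of that list, and in adult HPC with 538. It was missing from both fetal lists and stood at 33.1 and 27.7 in P14 and P21 HPC. Lama2, a laminin chain, held one at chr10:27265672-27266339 with 748 in adult HSC and 264 in adult HPC, called otherwise only in P14 HPC at 27.8. Toward fetal HSC, the strongest lay in Ptprt (chr2:161811263-161811612, 197), which fetal HPC held at 12.6 and P7 HPC at 45.0. Toward fetal HPC it lay in Dpp10 (chr1:123544351-123544824, 266), which P7 HPC held at 11.5 and no HSC list of set 1 held. Pard3 and Sgcz followed with 200 and 165. The Pard3 region was called in every list of set 1 except adult HPC, with 123 in adult HSC. Adult HPC regions missing from fetal HPC included those in Nlgn1 (431), a neuroligin, and Nav2 (420). Fetal HSC held both, at 26.3 and 13.7. Fetal HSC regions missing from fetal HPC were led by Zfp804b (155), Cadm2 (150) and Cntnap2 (111). The one in Zfp804b was called in every list of set 1 except fetal HPC, with 131 in P14 HPC.

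Between cell types in adult lists, strong HSC regions missing from adult HPC included those in Fstl5 (813) and Ptprn2 (551). In adult HPC, Fhit (531), Tenm3 (488) and Ntm (454) held the strongest regions missing from adult HSC, and the Tenm3 region at chr8:48295530-48296027 was also called in both HPC lists of set 2 (195 and 98.3) and in neither HSC list. At P14, the strongest HPC regions missing from HSC lay in Nkain2 (405), Fhit (333) and Ctnna3 (315). Those in Nkain2 and Ctnna3 were called in every list of set 1 except P14 HSC. Strong regions in the other direction included those in Thsd4 (153) and Mast4 (151).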

How the data were processed

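ATAC-seq peaks of 35 libraries in 12 groups were used as 12 peak lists, 1 pooled list a group. Per the submitters' processing notes the authors used Bowtie2 and MACS2 on mm10 (GRCm38), while program versions, calling thresholds, depth and pooling steps are not stated in these sources. The deposited lists hold a score, a fold enrichment (a ratio) and a −log10 p for each peak, all made by the authors. The −log10 p ranked regions within a list, the fold described lists, and the score was read but not used. Touching peaks were joined, keeping the highest −log10 p. Genes came from RefSeq, assembly GRCm38.p6, and a region inside several genes was counted once as a member. Strong regions are the upper 50% of a list by −log10 p. Intervals are exact Clopper-Pearson intervals at 95%, or follow from them for a ratio of counts. Genes were named by rule: 4 genes given with the rule that defines the regions (Csmd1, Cntnap5a, Ptprt, Dpp10), genes of most and fewest regions, largest folds per comparison, strongest regions per comparison and presence pattern, and up to 3 genes of each gene group. The 34 genes called in both cell types, the promoter windows and the P7 pair of sets were added after the counts were seen. The members and the gene lists were chosen with earlier results of these data known. Calculations used Python 3.11.15, pandas 2.3.3 and SciPy 1.17.1, and sharing and counting were checked on a list with known regions removed. Alternatives covered strong regions, 50% reciprocal overlap, genes of at least 1000 kb, lists of equal length, any overlap with the gene and, added later, presence patterns without 3 lists. Some genes that the naming rule gave are not reported here.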

Additional observations from a re-analysis of the deposited data

How the results depend on the processing

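The direction of the difference between long-gene regions and the whole list was the same under all 5 alternative settings for these shares: the share missing was higher in long genes in 9 of 10 directions, the exception each time being P14 HSC against P14 HPC. The shares themselves moved. With strong regions only they were 7.52% and 6.20% (fetal HSC against adult HSC and reverse), 10.1% and 7.52% (fetal and adult HPC), 4.21% and 6.57% (fetal HSC and fetal HPC), 2.16% and 24.0% (P14 HSC and P14 HPC) and 7.78% and 8.97% (adult HSC and adult HPC). With 50% reciprocal overlap they were, in the same order, 35.8% and 30.7%, 38.5% and 33.0%, 35.5% and 36.2%, 20.7% and 53.0%, and 34.9% and 35.0%. With genes of at least 1000 kb, 6 shares left the interval of the value reported: 35.9% for fetal HSC against adult HSC, 39.5% and 26.1% for fetal HPC against adult HPC and reverse, 30.1% for fetal HPC against fetal HSC, 55.7% for P14 HPC against P14 HSC and 30.3% for adult HSC against adult HPC. With lists of equal length, 21.1% and 39.6% were obtained for the P14 pair, and the other 8 shares stayed within their intervals. Counting any overlap with the gene kept all 12 results. Both permutation results stayed on the same side of the threshold in the same direction.

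Other settings were tried for counts per gene after seeing the data. With strong regions only, the genes called numbered 10 and 13 (fetal and adult HSC), 16 for fetal over adult HPC, 13 for fetal HPC over fetal HSC, and 9 and 6 (adult HSC and adult HPC), in place of 52, 5, 51, 8, 19 and 11; fewer genes passed the filter. The 13 strong calls for fetal HPC over fetal HSC were 8.18% of the long genes tested, where all genes gave 11.6%. The 9 and 6 of the adult lists were 6.21% and 4.14%, where all genes gave 9.26% and 8.51%. With equal length, 9 genes in place of 3 were higher in P14 HSC than in P14 HPC (5.59% of long genes tested, all genes 16.9%). Without the P14 and P21 lists, 73 in place of 8 regions were postnatal, 238 in place of 26 were of HSC and 168 in place of 90 of HPC, since fewer lists had to hold or lack a region. No paired analysis was possible because each group has 1 pooled list, so replicate numbers reach no value. Read depth is not given, which limits how far a missing region can be read.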
